A study of Mus musculus with 51 samples.

Results

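The response of gp91phox-/- alveolar macrophages to high-dose Aspergillus fumigatus conidia was compared between 4 h and 2 h after instillation. Members were taken by title: 12 of the 51 arrays of the series, 3 for each of 4 groups. The groups were gp91phox-/- (KO) mice given e7 conidia for 4 h, KO mice with mock instillation for 4 h, KO mice given e7 conidia for 2 h, and KO mice with mock instillation for 2 h. All 12 arrays carried RNA of macrophages harvested from the lungs of mice in which every cell lacks gp91phox, the membrane-bound part of the NADPH oxidase of phagocytes, so the epithelium and any other lung cell shared the deletion. The response at each time is the log2 signal with e7 conidia minus that with mock, and the quantity reported is the response at 4 h minus the response at 2 h, called here the response difference. A positive response difference means that conidia arrays stood higher above, or less far below, their mock arrays at 4 h than at 2 h. WT (C57Bl/6) mice had the same 4 conditions on 16 arrays, 4 each. The labels write the dose as e7 alone, give no age or sex, call the arrays biological replicates, and do not say how many mice stood behind each array. P-values therefore measure the spread between arrays, which may be partly technical. The series asked whether the response of macrophages differs between an intact host and one with an immune defect.

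Alveolar macrophages are the resident phagocytes of the airspaces and the first cells to take up inhaled conidia. Receptors for fungal cell wall glucans and other microbial products signal through NF-kB and MAP kinases to immediate-early transcription factors, then to cytokines and to chemokines that call in neutrophils. The NADPH oxidase delivers superoxide to the phagosome, and mice or people without it are prone to invasive aspergillosis.

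The chemokine genes Cxcl1 and Cxcl2 had the largest e7 responses at 4 h among the inflammatory genes described here, and their promoters are shown for that reason. Each sequence runs from 250 bases before to 50 bases after the start of the gene and is taken from RefSeq on GRCm38.p6. Cxcl1 lies on the plus strand at chr5:90890995-90891294 and Cxcl2 on the plus strand at chr5:90903649-90903948. Capitals mark matches to GGGNNTTTC, a stretch of the NF-kB motif, searched on both strands.
Cxcl1: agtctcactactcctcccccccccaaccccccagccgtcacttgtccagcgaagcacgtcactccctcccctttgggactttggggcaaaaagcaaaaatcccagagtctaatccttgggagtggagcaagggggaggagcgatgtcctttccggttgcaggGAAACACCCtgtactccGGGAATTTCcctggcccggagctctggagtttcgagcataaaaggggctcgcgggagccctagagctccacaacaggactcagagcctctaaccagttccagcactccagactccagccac
Cxcl2: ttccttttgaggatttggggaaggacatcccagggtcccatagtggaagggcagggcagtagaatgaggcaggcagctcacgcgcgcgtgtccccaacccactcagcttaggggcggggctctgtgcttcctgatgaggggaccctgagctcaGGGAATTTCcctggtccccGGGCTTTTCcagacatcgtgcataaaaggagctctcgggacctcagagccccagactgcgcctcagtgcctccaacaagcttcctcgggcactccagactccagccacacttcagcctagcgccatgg
The Cxcl1 promoter held 1 match on the plus strand, GGGAATTTC, from 71 to 63 bases before the start, and 1 on the minus strand, GGGTGTTTC, from 88 to 80 bases before it. The Cxcl2 promoter held GGGAATTTC from 97 to 89 bases and GGGCTTTTC from 78 to 70 bases before the start, both on the plus strand. The motif occurred in 5 of the 17 promoters found for measured chemokine genes (29.4%) and in 1432 of 32851 promoters of the same length (4.36%). A match is a description of letters, and binding was not measured.

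Cybb, which encodes gp91phox, was read first as a check of genotype. Its log2 signal lay between 6.77 and 9.06 on the 21 KO arrays of the series and between 10.59 and 12.12 on the 30 WT arrays, without overlap. Alveolar macrophage markers were high on all 12 arrays, with summed signals of 143338 to 145061 at 4 h with e7, 141908 to 162186 at 4 h with mock, 131178 to 134668 at 2 h with e7 and 157539 to 162398 at 2 h with mock. The mean log2 signal of 15 neutrophil markers lay between 6.16 and 6.87 on 11 arrays and was 7.53 on replicate 2 of mock at 4 h. Their summed signal at 2 h was lower with e7 (11790 to 13068) than with mock (14705 to 15807), and overlapped at 4 h. At 2 h the sums with e7 were also lower for T and NK cell markers (5278 to 5636 against 6629 to 7291). They were higher for endothelium and stroma markers (3149 to 3711 against 2317 to 2707). The sums of monocyte and dendritic, B cell, epithelium and erythroid markers overlapped at 2 h. In such bulk RNA, fewer cells of a type and less RNA per cell cannot be told apart.

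Array-wide measures moved with the groups and are given here for that reason. The median signal was 92 to 102 on the 4 h e7 arrays and 90.7 to 104 on the 4 h mock arrays, which overlapped. It was 103 to 114 on the 2 h e7 arrays, against 85.2 to 88.4 on the 2 h mock arrays, without overlap. Signals under 50 made up 32.7% to 37.3% of probe sets on the 2 h e7 arrays and 42.0% to 43.2% on the 2 h mock arrays. The 3'/5' ratio of the control probe sets (log2), which rises as RNA gets shorter, was 0.93 to 1.18 at 4 h with e7, 1.41 to 2.61 at 4 h with mock, 1.45 to 3.0 at 2 h with e7 and 0.92 to 1.22 at 2 h with mock. This ratio was low on the 4 h e7 and 2 h mock arrays and high on the 4 h mock and 2 h e7 arrays. The part of either measure in the results was not tested, and the 24 genes named below for this difference are followed with each as a covariate.

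**Figure D1:**
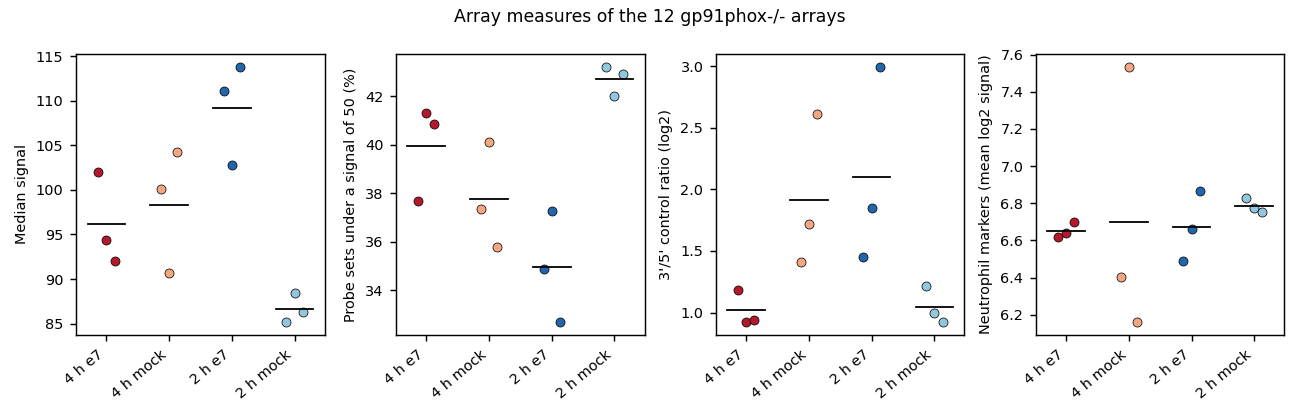
Median signal, percent of probe sets under a signal of 50, 3'/5' ratio of control probe sets (log2) and mean log2 signal of 15 neutrophil markers, each for the 12 gp91phox-/- arrays (points) with group means (lines). The 2 h mock arrays have the lowest median signals (85.2 to 88.4), and 1 of the 4 h mock arrays has a neutrophil marker mean of 7.53.

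Of 22626 probe sets, 384 (1.70%) differed between the 4 h and the 2 h response at an adjusted p under 0.05 (limma, Benjamini-Hochberg over all probe sets). Of these, 71 had a positive response difference (0.314%) and 313 a negative one (1.38%). By gene, with 1 probe set each, 187 of 12393 were called (1.51%), 35 with a positive (0.282%) and 152 with a negative difference (1.23%). The split depended on how low signals were treated. With signals under 50 set to 50, as the comparison was also defined, 3.73% of probe sets were called, 100 of them positive and 744 negative, and with quantile normalization 1.30%, 170 of them positive and 124 negative. The median response difference over all probe sets was -0.24 as deposited, -0.0027 with the floor and -0.0091 after quantile normalization. A total of 137 probe sets were called in the same direction under all 3 scalings, from 21 genes with a positive and 43 with a negative difference.

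Signal level differed between the directions. The 35 genes with a positive difference had a median mean signal of 144, near the 134 of all genes, while the 152 with a negative difference had a median of 23.2. Of those 152, 48 (31.6%) had all 4 group means under 50, against 29.0% of all genes. A mean signal under 50 was found for 200 of the 313 negative and 17 of the 71 positive probe sets, against 9924 of all 22626. Over those 9924 the median response difference was -1.06 (0.00 with the floor at 50). For the 3564 probe sets over 1000 that median was -0.0025, with 18 positive and 8 negative calls.

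**Figure D2:**
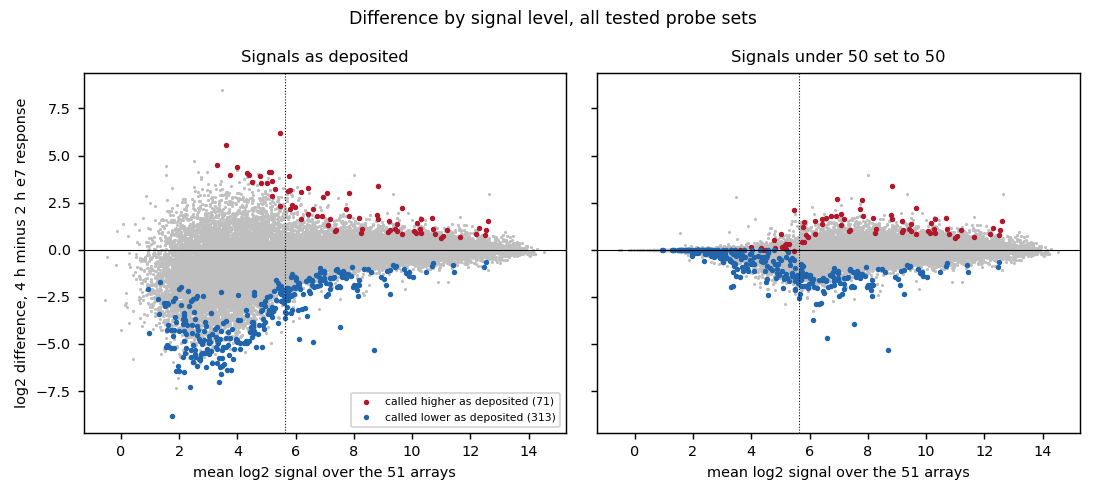
Response difference (log2, 4 h minus 2 h) against mean log2 signal over the 51 arrays for all 22626 tested probe sets, with signals as deposited on the left and signals under 50 set to 50 on the right; the dotted line marks a signal of 50. Red points are the 71 probe sets called positive and blue points the 313 called negative as deposited, and most blue points lie left of the dotted line.

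Single arrays carried weight in these counts. The number called was 94 without replicate 2 of 4 h e7, 113 without replicate 3 of 4 h mock, 144 without replicate 3 of 4 h e7, 155 without replicate 3 of 2 h e7 and 641 without replicate 1 of 4 h e7. It was also more than 1.5 times lower without replicate 1 of 2 h e7 (222), replicate 1 of 2 h mock (233) or replicate 1 of 4 h mock (222). Leaving out both arrays with the highest 3'/5' ratio, replicate 3 of 4 h mock and replicate 3 of 2 h e7, left 39. With the 3'/5' ratio as a covariate 212 were called, and with the log2 median signal as a covariate 60.

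The 4 terms of the comparison were then taken apart. At 2 h the response held 1957 calls (8.65% of probe sets), 1382 higher and 575 lower, with a split of 640 higher and 933 lower after quantile normalization. At 4 h it held 1 call by limma, lower (0.00442%), while 1587 probe sets (7.01%) had an unadjusted p under 0.05. The 4 h count was 71 with the floor at 50 and 7 after quantile normalization. Between the e7 arrays alone, 45 probe sets differed between 4 h and 2 h (0.199%), 17 higher and 28 lower at 4 h, or 78 higher and 45 lower after quantile normalization and 69 higher and 437 lower with the floor. Between the mock arrays alone, 222 differed (0.981%), 199 higher and 23 lower at 4 h, or 98 higher and 59 lower after quantile normalization. Leaving out 1 array brought the 2 h count to between 688 and 1274 and the mock count to between 60 and 202, with 60 without replicate 1 or 3 of 4 h mock. The 2 h mock arrays enter the 2 h response, the mock contrast and the response difference, so these counts are not independent.

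Msrb1 encodes a selenoprotein that reduces oxidized methionine, and it was the brightest of the genes named with a positive difference. Its signal was 7252, 7367 and 8015 at 4 h with e7 and 4806, 4093 and 5867 at 4 h with mock. At 2 h it was 4201, 5183 and 4310 with e7 and 8231, 8443 and 8306 with mock. The e7 arrays lay above mock at 4 h and below mock at 2 h, without overlap at either time. Both responses are part of the difference by which this and the other genes were named. Opposite orders at the 2 times were therefore favoured by the choice of genes. The response difference was 1.50 ± 0.31 (adjusted p = 0.00789), composed of 0.63 ± 0.22 at 4 h (adjusted p = 0.482) and -0.87 ± 0.22 at 2 h (adjusted p = 0.0124). The call held under each of the 21 other settings run for it.

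Bola1, a mitochondrial protein of iron-sulfur cluster assembly, had signals of 136, 183 and 148 at 4 h with e7 and 62.9, 100 and 69.9 at 4 h with mock. At 2 h they were 49.6, 64.9 and 41.4 with e7 and 209, 140 and 180 with mock. As for Msrb1, the groups did not overlap at either time and changed order between the times. Its response difference was 2.79 ± 0.57 (adjusted p = 0.00789), with a 2 h response of -1.77 ± 0.40 (adjusted p = 0.00641). Without both arrays of highest 3'/5' ratio it was 2.58 (adjusted p = 0.0786). A second Bola1 probe set, with a mean log2 signal of 1.90, gave -1.31 (adjusted p = 0.69).

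Rrnad1 and Mob2, whose product binds NDR kinases, had the largest positive differences as deposited among the 12 genes named for a rise. With the floor at 50 the largest of the 12 was that of Bola1 (2.69). Mob2 signals were 46.2, 69.1 and 82.5 at 4 h with e7, 83.5, 55.5 and 46.5 at 4 h with mock, 5.65, 50.9 and 12.7 at 2 h with e7, and 93.3, 135 and 171 at 2 h with mock. The 4 h groups overlapped, and the 2 h e7 arrays lay below mock. Its response difference was 3.16 ± 0.68 (adjusted p = 0.0119), and 1.46 with the floor at 50. Rrnad1 read 60.4, 99.3 and 73.8 at 4 h with e7, 61.3, 48.7 and 43.8 at 4 h with mock, 22.3, 42.9 and 5.49 at 2 h with e7, and 121, 117 and 95.7 at 2 h with mock. Its difference was 3.26 ± 0.65 (adjusted p = 0.00769), and 1.66 with the floor. Both calls ended in a fit of only the compared arrays and without the 2 arrays of highest 3'/5' ratio, and that of Rrnad1 also with median signal as a covariate (2.74, adjusted p = 0.0778).

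The other 8 genes named with a positive difference handle RNA, lipids, membranes and the cytoskeleton. They were Rpp21, a subunit of RNase P (3.03 ± 0.64), Snrpd3, a core protein of spliceosomal particles (1.66 ± 0.39), and Mettl1, a tRNA methyltransferase (1.62 ± 0.44). Coq8a, needed for coenzyme Q synthesis, gave 2.18 ± 0.52, and Gpat4, an acyltransferase of glycerolipid synthesis, 1.66 ± 0.45. Rabac1, a Rab acceptor, gave 1.83 ± 0.50, Cnp, a cyclic nucleotide phosphodiesterase, 1.69 ± 0.36, and Wasl, the actin regulator N-WASP, 1.40 ± 0.30. Their adjusted p-values lay between 0.0107 and 0.0477. In all 8 the 2 h e7 arrays lay below their mock arrays without overlap, against 11.4% of all probe sets. The 2 h response is part of the difference by which these genes were picked, so this order largely follows from that choice. At 4 h the groups overlapped for Rpp21, Coq8a, Gpat4, Rabac1 and Cnp. Rpp21 read 150, 87.9 and 103 at 4 h with e7, 146, 117 and 56.0 at 4 h with mock, 14.4, 67.6 and 17.0 at 2 h with e7, and 179, 158 and 222 at 2 h with mock. The call ended without replicate 3 of 4 h mock for Rpp21 (adjusted p = 0.0544) and Cnp (adjusted p = 0.0526), and without that array or replicate 3 of 2 h e7 for Wasl (highest adjusted p = 0.058). Leaving out 1 array also ended the call of Coq8a (any of 4 arrays, highest adjusted p = 0.102), Snrpd3 (any of 5, 0.0819), Gpat4 (any of 9, 0.178), Rabac1 (any of 10, 0.139) and Mettl1 (each of the 12, 0.101). Where these 5 calls ended, the differences lay between 1.25 and 2.26. Other probe sets of Cnp (0.24 and 0.22), Snrpd3 (0.19 and 0.31) and Wasl (-0.47, -0.59 and -1.23) were not called, and for Wasl they had the opposite sign, as did dimmer probe sets of Coq8a (-1.32) and Gpat4 (-3.61).

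Gna11 encodes the alpha subunit of a G protein that couples receptors to phospholipase C. Its signal was 200, 118 and 159 at 4 h with e7, against 248, 250 and 318 at 4 h with mock. At 2 h it was 260, 253 and 338 with e7, against 138, 104 and 133 with mock. The order of e7 and mock was opposite at the 2 times, without overlap at either, and was favoured by the choice of genes as for Msrb1. The response difference was -1.98 ± 0.32 (adjusted p = 0.00111), with -0.80 ± 0.22 at 4 h (adjusted p = 0.288) and 1.18 ± 0.22 at 2 h (adjusted p = 0.00155). It was called under all 21 other settings run, and a second probe set gave -0.41 (adjusted p = 0.37).

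Fcho1, which starts clathrin-coated pits, showed the same order at lower signal. It read 58.1, 53.8 and 33.0 at 4 h with e7, 124, 105 and 103 at 4 h with mock, 93.5, 82.5 and 103 at 2 h with e7, and 42.0, 35.6 and 42.8 at 2 h with mock. The difference was -2.45 ± 0.44 (adjusted p = 0.00363), -1.92 with the floor at 50, and it was called under all 21 other settings run. Other Fcho1 probe sets, dimmer than the one used, gave 1.47 and -1.76, neither called.

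Bcar1, the adaptor p130Cas of integrin signalling, differed mainly through the mock arrays. Its signal was 258, 159 and 156 at 4 h with e7 and 219, 204 and 243 at 4 h with mock, which overlapped. At 2 h it was 271, 205 and 163 with e7, above 51.3, 65.4 and 76.0 with mock. The response difference was -1.97 ± 0.34 (adjusted p = 0.00253). The 4 h mock arrays exceeded the 2 h mock arrays by 1.80 ± 0.24 (adjusted p = 9.76e-05), a call that ended in a fit of only the compared arrays. The call of the response difference held except with median signal as a covariate (-1.33, adjusted p = 0.054). A dimmer probe set gave 1.26 (adjusted p = 0.65).

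**Figure D3:**
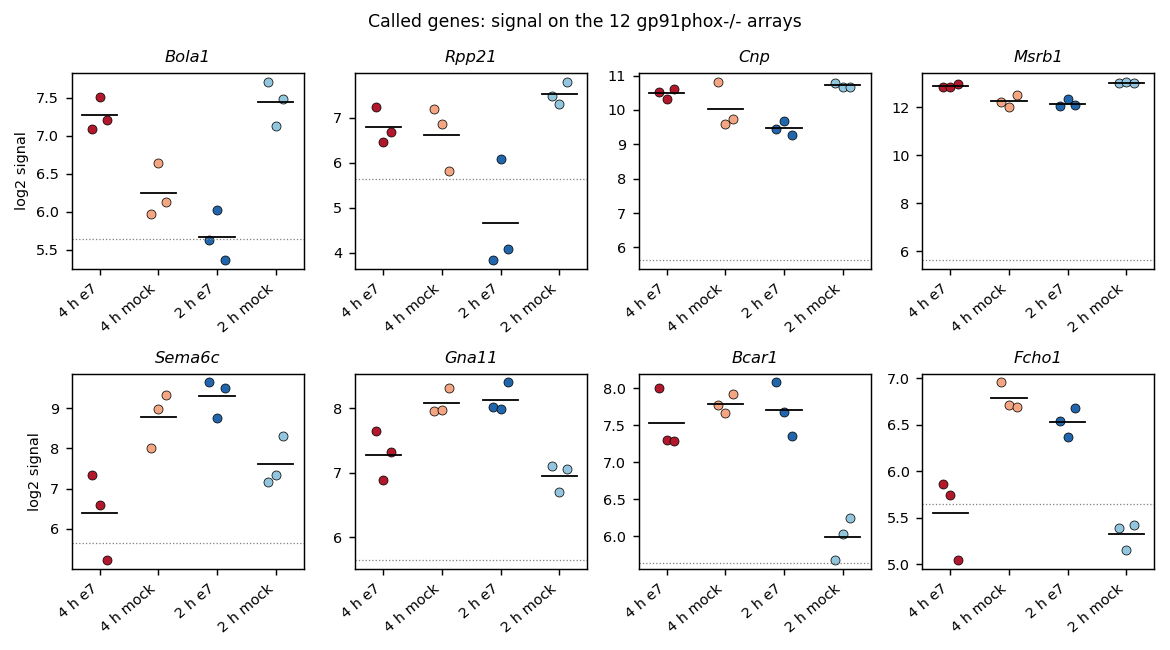
Log2 signal of Bola1, Rpp21, Cnp, Msrb1, Sema6c, Gna11, Bcar1 and Fcho1 on the 12 gp91phox-/- arrays; points are arrays, lines are group means and the dotted line is a signal of 50. In the upper row the 2 h e7 arrays lie below the 2 h mock arrays, and in the lower row above them. The genes were picked by a difference that holds this 2 h response.

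Sema6c, a semaphorin, had the largest negative difference with the floor at 50 among the genes named (-3.93). It read 163, 96.3 and 37.3 at 4 h with e7, 258, 504 and 641 at 4 h with mock, 797, 429 and 728 at 2 h with e7, and 144, 163 and 318 at 2 h with mock. The e7 arrays lay below mock at 4 h and above mock at 2 h. Its response difference was -4.07 ± 0.84 (adjusted p = 0.00812), while 2 dimmer probe sets gave 0.27 and -1.18, neither called. Without the 2 arrays of highest 3'/5' ratio it was -3.69 (adjusted p = 0.086), with median signal as a covariate -3.35 (adjusted p = 0.0877), and in a fit of only the compared arrays the adjusted p was 0.0527.

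The other 8 genes named with a negative difference were Rusc2 (-4.72 ± 1.19), Boc, a Hedgehog co-receptor (-3.62 ± 0.95), Adcyap1r1, the PACAP receptor (-3.04 ± 0.74), and Sync, the intermediate filament protein syncoilin (-2.36 ± 0.45). Telo2, a co-chaperone of PI3K-related kinases, gave -1.98 ± 0.37, Arap3, a GTPase-activating protein, -5.26 ± 0.95 (-1.97 with the floor), Col9a1, a collagen chain, -1.90 ± 0.42, and Zfp109, a zinc finger protein, -2.03 ± 0.41. Their adjusted p-values lay between 0.00391 and 0.0384. The 2 h e7 arrays lay above mock without overlap in all 8, against 26.6% of all probe sets. This too largely follows from picking genes by a difference that holds the 2 h response. The 4 h e7 arrays lay below mock without overlap in Rusc2 and Sync, against 9.05% of all probe sets. The 4 h response is part of the difference as well, so that order was also favoured by the choice. Telo2 read 407, 286 and 329 at 4 h with e7, 379, 425 and 586 at 4 h with mock, 586, 507 and 587 at 2 h with e7, and 151, 197 and 238 at 2 h with mock, so its 2 h mock arrays were the lowest of the 4 groups. Leaving out 1 array ended the call for Rusc2 and Boc (any of 8 arrays each, highest adjusted p 0.101 and 0.122), Adcyap1r1 (any of 6, 0.117) and Col9a1 (replicate 3 of 4 h mock, 0.0627). Sync, Telo2, Arap3 and Zfp109 stayed called without each single array, but each lost the call under at least 1 of the settings that follow. Other probe sets of Telo2 gave -0.38 and -1.66, and 1 of 2 dimmer ones of Sync had the opposite sign (0.82). Dimmer probe sets of Rusc2 (-0.59), Boc (-3.40 and -0.25), Adcyap1r1 (-3.04), Arap3 (-1.69) and Col9a1 (-2.57) kept the sign. None of these other probe sets was called.

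All 24 genes named above for the response difference were called with the floor at 50, with a replicate block and with array weights, and 23 after quantile normalization, where Boc missed (adjusted p = 0.0662). The genes were named by the size of their floored difference, so their calls with the floor were favoured by that choice and are no separate support. With the 3'/5' ratio as a covariate 20 were called, and Coq8a, Gpat4, Mettl1 and Boc were not (adjusted p between 0.0607 and 0.082). With the log2 median signal as a covariate 8 were called, namely Bola1, Cnp, Coq8a, Msrb1, Mob2, Gna11, Fcho1 and Sync, and the other 16 had adjusted p-values between 0.054 and 0.174. Without the 2 arrays of highest 3'/5' ratio 5 were called, namely Msrb1, Gna11, Bcar1, Arap3 and Fcho1, and in a fit of only the compared arrays 10 were. Msrb1, Gna11 and Fcho1 were the 3 genes called under every setting run.

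The lists of cytokines, chemokines, NF-kB components and immediate-early factors held 99 measured genes, none of them called in the response difference by limma; 12 had an unadjusted p under 0.05, against 17.1% of all probe sets. Over all lists, 2 members were called, both negative. They were Cd4, 1 of 19 measured T and NK cell markers, and Mfap4, 1 of 20 measured endothelium and stroma markers. No other list held a call. The lists together held many more measured genes than these and the 99 above, so the share called lay below the 1.51% of all genes. Cd4 (-5.75 ± 1.41, adjusted p = 0.0288) read 94.3, 6.44 and 34.2 at 4 h with e7, 94.1, 55.2 and 121 at 4 h with mock, 93.8, 81.1 and 116 at 2 h with e7, and 3.97, 2.35 and 18.2 at 2 h with mock. With the floor at 50 it was -1.41. The Cd4 call ended without any of 8 of the 12 arrays (highest adjusted p = 0.117), with the 3'/5' ratio as a covariate (adjusted p = 0.0521) and with median signal as a covariate (-3.75, adjusted p = 0.202). Mfap4 read between 1.57 and 7.40 on all 12 arrays, and its difference of -1.69 became 0.00 with the floor.

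Cxcl1, a neutrophil chemokine, read 470, 369 and 601 at 4 h with e7, against 64.5, 45.1 and 66.0 at 4 h with mock. At 2 h it read 216, 302 and 342 with e7, against 66.5, 56.7 and 62.2 with mock. The e7 arrays lay above mock at both times. The response was 3.03 ± 0.58 at 4 h (adjusted p = 0.0837) and 2.19 ± 0.58 at 2 h (adjusted p = 0.018). With the floor at 50 the 4 h response passed (adjusted p = 0.00063), and without replicate 3 of 2 h e7, or replicate 2 or 3 of 2 h mock, the 2 h call ended. The response difference was 0.84 ± 0.82 (95% interval -0.83 to 2.51, adjusted p = 0.643).

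Cxcl2, its neighbour on the chromosome, read 7062, 5172 and 6808 at 4 h with e7 and 967, 2889 and 966 at 4 h with mock. At 2 h it read 4226, 3504 and 4250 with e7 and 1298, 1052 and 1068 with mock. The e7 arrays were above mock at both times, and the high mock reading was replicate 2 of 4 h, the array with the highest neutrophil marker mean. The response was 2.18 ± 0.79 at 4 h and 1.81 ± 0.79 at 2 h, neither called, and the response difference was 0.36 (interval -1.91 to 2.64). It was 0.89 without replicate 2 and 0.10 without replicate 3 of 4 h mock.

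Ccl3, Il1a and Rgs1 stood above mock at 4 h and overlapped mock at 2 h. Il1a, which encodes interleukin-1 alpha, read 1771, 2243 and 2113 at 4 h with e7, 499, 886 and 600 at 4 h with mock, 834, 750 and 871 at 2 h with e7, and 834, 635 and 747 at 2 h with mock. Its response difference was 1.51 ± 0.56 (interval 0.37 to 2.64, adjusted p = 0.147). Ccl3, a chemokine for monocytes and other leukocytes, read 2379, 3081 and 3079 at 4 h with e7, 739, 1129 and 705 at 4 h with mock, 1407, 1135 and 1420 at 2 h with e7, and 1205, 1131 and 1522 at 2 h with mock. Its difference was 1.71 ± 1.03 (interval -0.37 to 3.79). For Rgs1, an inhibitor of G-protein signalling, the difference was 1.19 ± 0.50 (interval 0.17 to 2.21, adjusted p = 0.21), with 4 h e7 signals of 1996 to 3666 against 740 to 1266 with mock. None of the 3 passed after adjustment over all probe sets, although Ccl3 did in a fit of only the compared arrays (adjusted p = 0.0457) and Il1a with array weights (adjusted p = 0.0387).

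Tnf, Egr1, Atf3, Maff and Fosb had e7 arrays above mock at both times, and the 95% intervals of their response differences included 0. Tnf, the cytokine TNF, read 831, 556 and 942 at 4 h with e7, 316, 216 and 318 at 4 h with mock, 484, 239 and 397 at 2 h with e7, and 191, 168 and 128 at 2 h with mock. Its responses were 1.44 ± 0.41 at 4 h and 1.16 ± 0.41 at 2 h, and the difference was 0.28 (interval -0.88 to 1.44). Egr1, a zinc finger factor, read 1556, 1262 and 1658 at 4 h with e7, 348, 616 and 546 at 4 h with mock, 1363, 861 and 1209 at 2 h with e7, and 283, 235 and 303 at 2 h with mock. Its response passed at 2 h (2.05 ± 0.57, adjusted p = 0.0219, but not without replicate 1 or 3 of 2 h e7 or any 2 h mock array) and was 1.60 ± 0.57 at 4 h, and the difference was -0.45 (interval -2.07 to 1.18). The differences of Atf3 (0.02, interval -0.85 to 0.89) and Maff (0.06, interval -0.63 to 0.75) changed sign under some settings. Fosb, a partner in AP-1, gave -0.63 (interval -2.61 to 1.35).

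In the immediate-early list, the e7 arrays lay above mock without overlap for 7 of 27 genes at 4 h, against 7.21% of all probe sets, and for 15 of 27 at 2 h, against 26.6%. At both times this was so for Atf3, Egr1, Fosb, Ier5 and Maff, against 2.25% of all probe sets. In the NF-kB list it was so at both times for Bcl3, Nfkbie, Rela and Relb of 23 genes, and among 26 chemokines for Cxcl1 and Cxcl2.

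A different order was seen for Cebpb, also on the immediate-early list. Cebpb, a transcription factor of macrophage activation, read 4129, 4355 and 4261 at 4 h with e7, 3936, 3974 and 4288 at 4 h with mock, 5622, 5340 and 5017 at 2 h with e7, and 2735, 2646 and 2746 at 2 h with mock. The 2 h groups did not overlap, and the 4 h groups did. Its response was 0.06 ± 0.20 at 4 h and 0.97 ± 0.20 at 2 h (adjusted p = 0.00266, but 0.0899 with median signal as a covariate), and the difference of -0.91 ± 0.28 missed the threshold (adjusted p = 0.0788) except with the floor (adjusted p = 0.0461), in a fit of only the compared arrays, with a replicate block and with array weights.

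Atf4, the transcription factor of the amino acid and unfolded protein responses, read 3020, 2050 and 2210 at 4 h with e7, 2127, 2903 and 3915 at 4 h with mock, 2277, 2135 and 2676 at 2 h with e7, and 1149, 1425 and 1431 at 2 h with mock. Its difference was -1.10 ± 0.31 (adjusted p = 0.0575, 0.0319 with the floor), and the mock arrays were higher at 4 h than at 2 h by 1.12 (adjusted p = 0.00903). That mock call ended in a fit of only the compared arrays, without replicate 3 of 4 h mock, and without the 2 arrays of highest 3'/5' ratio. Another bright Atf4 probe set, with a mean log2 signal of 10.76, gave 0.69 (adjusted p = 0.26), with 0.56 at 4 h and -0.12 at 2 h, so the probe sets disagree in direction. Slc7a5, an amino acid transporter, read 467, 262 and 337 at 4 h with e7, 334, 333 and 334 at 4 h with mock, 445, 348 and 397 at 2 h with e7, and 199, 125 and 19.7 at 2 h with mock. Its difference was -2.28 ± 0.76 (adjusted p = 0.105), and -1.28 without replicate 3 of 2 h mock. Dusp2, a phosphatase of MAP kinases, gave -1.94 (adjusted p = 0.16; -1.12 and adjusted p = 0.0063 with the floor), and Fn1, fibronectin, -0.88 ± 0.25 (adjusted p = 0.0534, 0.0229 with the floor).

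Inflammasome and antioxidant genes gave no call in the response difference. Nlrp3, the inflammasome sensor, was above mock at both times, with responses of 0.38 ± 0.33 at 4 h and 1.02 ± 0.33 at 2 h (adjusted p = 0.0438, not called without any 1 of the 6 arrays) and a difference of -0.64 (interval -1.57 to 0.29). Casp1, the inflammasome protease, was below mock at both times, at -0.24 ± 0.13 and -0.59 ± 0.13 (adjusted p = 0.00436), with a difference of 0.36 (interval -0.01 to 0.72). Hmox1, the haem-degrading enzyme, read 839, 1325 and 1033 at 4 h with e7, 699, 1764 and 481 at 4 h with mock, 617, 895 and 821 at 2 h with e7, and 1289, 1602 and 1990 at 2 h with mock. Its difference was 1.38 ± 0.50 (adjusted p = 0.137), and it passed without replicate 2 of 4 h mock (1.91, adjusted p = 0.0265). Over 24 measured NRF2 and antioxidant genes the median difference was 0.10, against -0.23 over all genes as deposited. The median over all genes was -0.026 with the floor and -0.032 after quantile normalization.

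**Figure D4:**
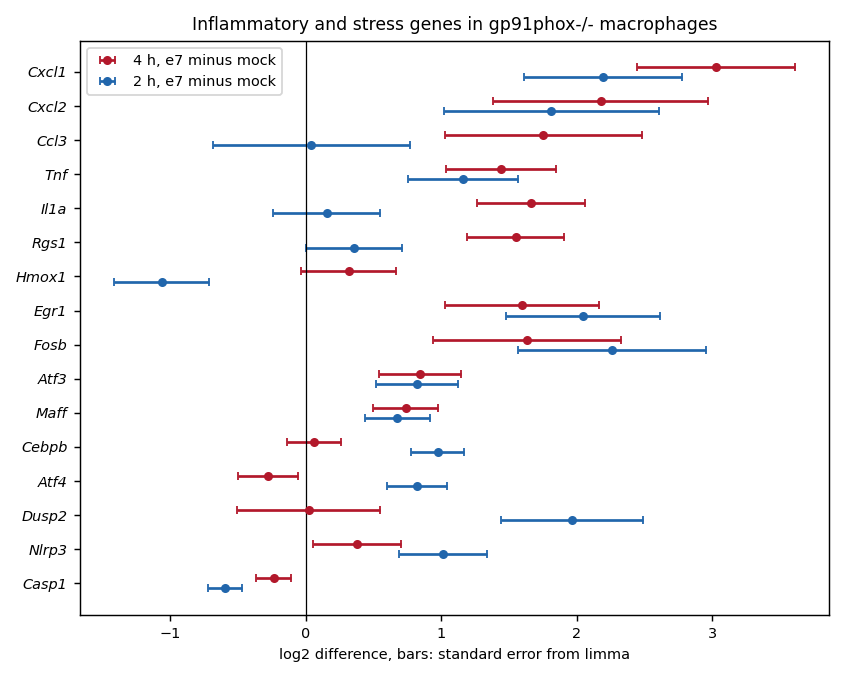
Log2 difference of e7 minus mock at 4 h (red) and at 2 h (blue) for 16 inflammatory and stress genes in gp91phox-/- macrophages; bars are standard errors from limma. Cxcl1, Cxcl2, Tnf, Egr1, Fosb, Atf3 and Maff lie right of 0 at both times, and Cebpb and Dusp2 lie near 0 at 4 h only.

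Some genes of protein synthesis and of the respiratory chain fell with e7 at 2 h. Among 23 measured ribosomal protein genes, 7 fell at 2 h (Rpl7, Rpl19, Rpl35, Rpl37, Rplp0, Rps24 and Rpsa), against a background of 2.65% of genes. After quantile normalization 2 fell at 2 h, against a background of 4.33%. At 4 h 0 of the 23 fell, but only 1 of all 22626 probe sets was called there, so this 0 says little about these genes. At that time 5 of them had an unadjusted p under 0.05, against 7.01% of all probe sets. The median response over the 23 was -0.23 at 4 h and -0.51 at 2 h, against -0.05 and 0.23 over all genes. That 2 h median over all genes was 0.0031 with the floor and 0.015 after quantile normalization. As deposited, probe sets with a mean signal over 1000 had a 2 h median of -0.039. The median response difference of the 23 was 0.37, with 19 of 23 above 0 and none called. The e7 arrays lay below mock without overlap for 11 of the 23 at 4 h and for 22 at 2 h, against 9.05% and 11.4% of all probe sets. Rpl37 read 329, 404 and 265 at 4 h with e7, 429, 554 and 329 at 4 h with mock, 191, 176 and 246 at 2 h with e7, and 598, 886 and 992 at 2 h with mock. Its 2 h response was -2.0 ± 0.41 (adjusted p = 0.003) and its difference 1.61 ± 0.58 (adjusted p = 0.135).

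Against the same background of 2.65%, 6 of 29 respiratory chain genes fell at 2 h (Ndufa4, Ndufb3, Ndufb8, Cox4i1, Cox6a1 and Cox6c). Their median responses were -0.17 at 4 h and -0.37 at 2 h, with a median difference of 0.22. Of 26 proteasome genes, 3 fell at 2 h (Psma2, Psma5 and Psmb3), with a median difference of 0.16. At 4 h, where only 1 of all probe sets was called, 0 of either list fell. An unadjusted p under 0.05 was found there for 4 respiratory chain and 2 proteasome genes, against 7.01% of all probe sets. After quantile normalization (4.33%) the 2 h counts were 5 respiratory chain, 2 proteasome and 0 alveolar macrophage marker genes. Alveolar macrophage markers also stood lower at 2 h with e7, with a median of -0.23 over 19 genes and 1 of them called, Cd68, against -0.02 at 4 h. The 2 h e7 arrays also had the highest median signals and, with 4 h mock, the highest 3'/5' ratios, and the part of these in the list medians was not tested.

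**Figure D5:**
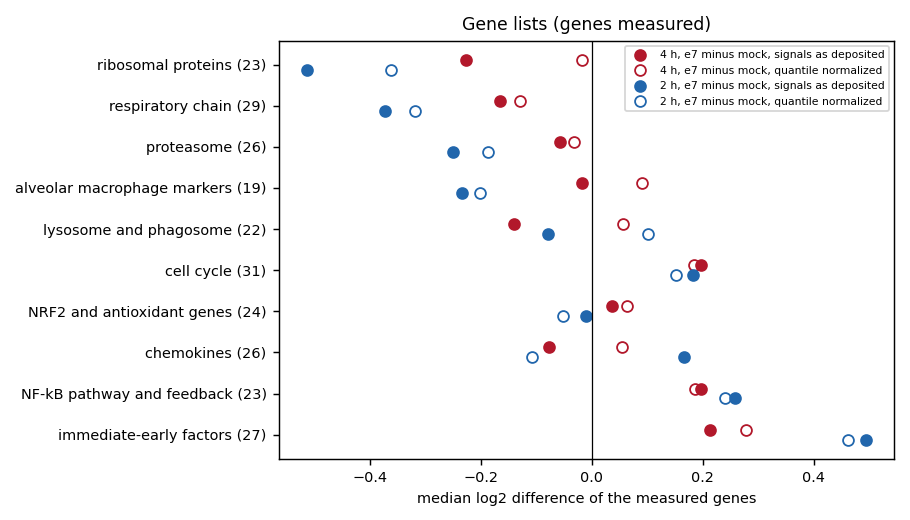
Median log2 difference of e7 minus mock over the measured genes of 10 lists (numbers in parentheses) at 4 h (red) and 2 h (blue), as deposited (filled) and after quantile normalization (open). Ribosomal protein genes have the lowest 2 h medians, -0.51 as deposited and -0.36 after quantile normalization, and the immediate-early factors the highest of the 10 lists drawn.

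Among genes that differed between the e7 arrays, Orai1, the pore of store-operated calcium channels, read 311, 324 and 346 at 4 h with e7, 491, 490 and 572 at 4 h with mock, 718, 530 and 698 at 2 h with e7, and 354, 373 and 388 at 2 h with mock. Its e7 signal was lower at 4 h (-0.98 ± 0.20, adjusted p = 0.0201), and its response difference was -1.45 ± 0.28 (adjusted p = 0.00601), while another probe set gave -0.58 (adjusted p = 0.5). Ncbp2, a subunit of the nuclear cap-binding complex, read 908, 861 and 1039 at 4 h with e7, against 1465, 1777 and 1824 at 2 h with e7 (-0.85 ± 0.16, adjusted p = 0.0113), and other probe sets of it gave response differences of -0.68 and -0.10, against -1.43 for the one used. Chmp6, an ESCRT-III subunit, read 269, 299 and 290 at 4 h with e7, against 72.1, 191 and 82.1 at 2 h with e7 (1.45 ± 0.28, adjusted p = 0.0135). These time calls were sensitive to single arrays: the total was 3 without replicate 2 of 4 h e7, 6 without replicate 3 of 4 h e7, 15 without replicate 3 of 2 h e7 and 88 without replicate 1 of 4 h e7, and the calls of Orai1, Ncbp2 and Chmp6 each ended without replicate 2 of 4 h e7 or replicate 3 of 2 h e7.

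The response difference was also set against that of WT macrophages. The 4 WT arrays taken as mock at 4 h are mock by title, but their treatment field speaks of conidia, and the values below rest on the titles. A total of 128 probe sets (0.566%) differed between the genotypes, 23 with a larger value in KO and 105 with a smaller one. With the floor at 50 the count was 387, with 71 larger and 316 smaller, and after quantile normalization 72, with 32 larger and 40 smaller. Among KO arrays it was 38 without replicate 2 of 4 h e7, 44 without replicate 3 of 4 h mock, 61 without replicate 3 of 2 h e7, 67 without replicate 3 of 4 h e7, 68 without replicate 3 of 2 h mock, 75 without replicate 1 of 4 h mock and 78 without replicate 1 of 2 h e7. It was 205 without replicate 2 of KO 4 h mock, 280 without replicate 1 of KO 4 h e7 and 1198 without replicate 4 of WT 4 h e7. Rab11fip5, a Rab11 effector of recycling endosomes, had a response difference of -1.46 ± 0.30 in KO and 0.59 ± 0.26 in WT (KO minus WT -2.06 ± 0.40, adjusted p = 0.0135). It read 334, 227 and 243 at 4 h with e7, 301, 207 and 273 at 4 h with mock, 474, 486 and 559 at 2 h with e7, and 157, 183 and 197 at 2 h with mock in KO. Orai1 gave -1.45 in KO and 0.52 in WT (difference -1.97 ± 0.37, adjusted p = 0.0135), and both calls held under all 37 other settings run. Msrb1 had 1.50 ± 0.31 in KO and 0.41 ± 0.27 in WT (adjusted p = 0.168 for the difference between genotypes), and Gna11 had -1.98 ± 0.32 in KO and -0.70 ± 0.28 in WT (adjusted p = 0.125). Maff had 0.06 ± 0.34 in KO and 1.61 ± 0.29 in WT (adjusted p = 0.0802), and Tnf 0.28 ± 0.57 in KO and 1.84 ± 0.50 in WT (adjusted p = 0.283).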

How the data were processed

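Alveolar macrophage RNA was labelled by the two-cycle Affymetrix procedure and hybridized to mouse arrays, per the labels' protocols. The authors deposited linear signal intensity values, 1 per probe set and array. GCOS and RMA are the tools in the submitters' processing notes, with no version or role given in the sources used here. After 2% of values was trimmed from either end, each array had a mean near 500, but the distributions differed between arrays.

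Of 22690 probe sets, 64 controls were left out and 22626 tested. The platform annotation gave 20380 exactly 1 gene symbol, 691 several and 1555 none. A gene was read from its brightest probe set with 1 symbol (12393 genes). Values were taken to log2 without a pseudocount or filter. The fit (lmFit, contrasts.fit and eBayes of limma 3.58.1, run in R 4.3.3) had 1 mean per group over all 51 arrays in 15 groups, so 1 spread per probe set is shared by all groups. P-values are two-sided, adjusted by Benjamini-Hochberg over all tested probe sets, and called under 0.05. Errors after ± are limma standard errors, and intervals are 95%. Precision is limited by the number of arrays.

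Genes named per comparison were the 12 largest rises and 12 largest falls among called genes, ranked with signals under 50 set to 50 and at least 0.5 in size there, plus list members and Cybb. The members and the 31 gene lists were chosen with earlier results of these data known. The fit was checked on simulated data. Groups follow the titles, which say mock for 4 WT arrays at 4 h where the treatment field says conidia.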

Additional observations from a re-analysis of the deposited data

Results flagged for a closer look

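By limma's test, the response difference (4 h minus 2 h, e7 minus mock) differed between the genotypes for 52 genes, 13 positive and 39 negative. A selection of them is given here as KO minus WT on the log2 scale, and some were already named above for the KO difference. Groups of 3 KO arrays were too small for a test of outlying arrays.

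Differences were positive for Rpp21 (3.60 ± 0.85, adjusted p = 0.0365; 3.03 in KO and -0.58 in WT), Cnp (2.17 ± 0.48, adjusted p = 0.0268; 1.69 in KO and -0.48 in WT), Mob2 (4.52 ± 0.90, adjusted p = 0.0145; 3.16 in KO and -1.35 in WT) and Snapc2, a subunit of the small nuclear RNA activating complex (2.20 ± 0.48, adjusted p = 0.0268; 0.97 in KO and -1.22 in WT). With signals under 50 set to 50 they were 2.49, 2.17, 2.22 and 2.20.

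Differences were negative for Adcyap1r1 (-5.04 ± 0.98; -3.04 in KO and 2.01 in WT), Sync (-3.12 ± 0.60; -2.36 in KO and 0.76 in WT) and Arap3 (-5.84 ± 1.26; -5.26 in KO and 0.58 in WT), with adjusted p-values of 0.0135, 0.0135 and 0.023. With the floor they were -2.68, -2.40 and -1.97. Mfap4 gave -2.29 ± 0.53 (adjusted p = 0.0345; -1.69 in KO and 0.61 in WT), which was 0.00 with the floor.

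Brighter genes followed. Hyou1, a chaperone of the endoplasmic reticulum, gave -3.13 ± 0.64 (adjusted p = 0.0148; -1.69 in KO and 1.44 in WT), although another of its probe sets gave 0.38 in KO. Synpo, the actin-associated protein synaptopodin, gave -3.10 ± 0.57 (adjusted p = 0.0102; -1.44 in KO and 1.66 in WT). Midn, which encodes midnolin, gave -2.58 ± 0.53 (adjusted p = 0.0148; -1.35 in KO and 1.23 in WT). Klhl21, an adaptor of a ubiquitin ligase, gave -2.46 ± 0.58 (adjusted p = 0.0365; -0.49 in KO and 1.96 in WT). Rab11fip5 gave -2.06 ± 0.40 and Orai1 -1.97 ± 0.37 (adjusted p = 0.0135 each). Leaving out 1 array ended the call of Rpp21 (any of 10 of the 28 KO and WT arrays), Klhl21 (any of 13), and Cnp, Snapc2 and Arap3 (any of 3 each), in all 5 without replicate 3 of KO 4 h mock. Without the 2 arrays of highest 3'/5' ratio these 5 calls and those of Mob2, Hyou1 and Midn ended, and after quantile normalization those of Klhl21 and Sync. A fit of only the compared arrays ended the calls of Rpp21, Mob2, Cnp, Snapc2, Midn, Klhl21 and Arap3. With a replicate block those of Rpp21 and Klhl21 ended.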

How the results depend on the processing

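Counts of called probe sets moved more with the treatment of low signals and with single arrays than their main values show. For the response difference (384), the count was 844 with signals under 50 set to 50, 225 in a fit of only the compared arrays, 212 with the 3'/5' ratio as a covariate, 168 among probe sets with a mean signal of at least 50, 1629 with array weights, 39 without the 2 arrays of highest 3'/5' ratio and 60 with the log2 median signal as a covariate. The last 2 settings were added after seeing the data. Quantile normalization (294) changed the count by less than 1.5 times.

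In the same order of settings, where the count moved by over 1.5 times, the 2 h response (1957) gave 877 with only the compared arrays, 4672 with weights, 695 without the 2 arrays and 386 with median signal. The 4 h response (1) gave 71 with the floor, 7 with quantile normalization, 0 with only the compared arrays, 6 with the signal filter, 34 with weights and 13 without the 2 arrays. The e7 arrays (45) gave 506 with the floor, 123 with quantile normalization, 1 with only the compared arrays, 27 with the 3'/5' covariate, 612 with weights, 15 without the 2 arrays and 25 with median signal. The mock arrays (222) gave 0 with only the compared arrays, 95 with the filter, 568 with weights, 55 without the 2 arrays and 51 with median signal. KO minus WT (128) gave 387 with the floor, 72 with quantile normalization, 55 with only the compared arrays, 947 with weights, 36 without the 2 arrays and 325 with median signal.

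Leaving out 1 array gave 94 to 641 for the response difference, 688 to 1274 at 2 h, 1 to 13 at 4 h, 3 to 88 for the e7 arrays, 60 to 202 for the mock arrays and 38 to 1198 for KO minus WT. The titles do not say what same-numbered arrays have in common beyond the number. Over 18 pairs of them, the correlations of their deviations from group means lay between -0.04 and 0.066. With the replicate number as a block, the counts were 451 for the response difference, 2225 at 2 h, 1 at 4 h, 77 for the e7 arrays, 219 for the mock arrays and 125 for KO minus WT.

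Of 1786 values of single genes under alternatives, 1454 kept direction and side of the threshold, 295 lost the call, 21 gained one and 16 changed sign. The sign changed for Fosb with the 3'/5' covariate (0.19), for Atf3 with that covariate (-0.30) and without the 2 arrays (-0.23), and for Maff with array weights (-0.017) and without the 2 arrays (-0.033). Leaving out 1 array gave -0.010 to 0.50 for Tnf, -0.18 to 0.30 for Atf3 and -0.11 to 0.23 for Maff. None of these genes was called in the response difference, and the cause was not tested.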
